A study of Mus musculus with 5 samples.

Results

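The Hox genes encode homeodomain transcription factors that give cells their position along the body axis. In mouse they lie in 4 clusters, Hoxa to Hoxd, and carry a paralogue number from 1 to 13 that follows their order in the cluster. Low numbers are used in anterior parts of the embryo and high numbers in posterior parts and limbs. Hox clusters are the textbook targets of the Polycomb group. Polycomb Repressive Complex 2 (PRC2) trimethylates lysine 27 of histone H3 (H3K27me3), and CBX proteins such as CBX2 can bring Polycomb Repressive Complex 1 (PRC1) to that mark. A long stretch of a cluster can carry Polycomb proteins in cells that keep those genes silent, with an edge where the active genes begin.

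The members described here were 38 listed Hox genes, which are 38 of 22380 protein-coding genes in the annotation. They are given by name and no measured value enters the rule, although the set was proposed with earlier results of these data known. Each was set against the CBX2 peaks of 3 ChIP-Seq libraries. Chromatin came from mouse embryonic fibroblasts (MEFs) isolated from a mid-gestation embryo. Its Eed gene, which encodes a PRC2 subunit, carries loxP sites around several exons. All 3 groups share this floxed allele, and the labels name Cre only for the EEDnull line, which was a single clone. The Control group was the parental floxed line, the EZHIP group carried a lentivirus for human EZHIP, and the K27M group carried a lentivirus for the histone mutant H3.3 K27M. EZHIP is a protein of posterior fossa ependymomas and H3.3 K27M a mutant of diffuse midline gliomas, and both inhibit PRC2. The paper states that transduced cells were selected with puromycin. The labels do not say that the Control cells received a virus, so the transgene cannot be told apart from transduction and selection. The comparison asked where CBX2 was bound when PRC2 was inhibited. The K27R and EEDnull libraries of the series were not analysed here.

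Each group had 1 library, so no value has a replicate error and no test was possible. The authors called broad peaks separately in each library. The lists held 289 Control, 255 EZHIP and 327 K27M peaks with a median width of 7.4, 6.8 and 9.6 kb, made of 200 bp bins, with no score or height. Read depth is unknown, and calls near an edge can move with it; its part in the differences below was not tested. A peak is a stretch called as bound, since neighbouring calls were joined, and its cover is not a level of CBX2. Peaks hold no expression values, so the labelled cell type could not be checked against marker genes.

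5 members differed in status between lists, meaning that their start was inside a peak in at least 1 list and outside in at least 1 other. They were 5 of the 21 members with a start inside a peak in any list (23.8%), against 54.6% of such starts over all protein-coding genes, so a difference between lists is ordinary in these data. The start was the outermost annotated 5′ end of the gene. The 250 bases before it are shown for 4 of these genes, those whose start was inside a peak in EZHIP alone. Sequences are from NCBIM37 (mm9), 5′ to 3′ on the strand of the gene, with capitals for CpG dinucleotides, and none of them overlaps an annotated exon. The Hoxa7 stretch is chr6:52171854-52172103 (minus strand). Those of the Hoxd genes are chr2:74535487-74535736 (plus strand) for Hoxd9, chr2:74542422-74542671 (plus strand) for Hoxd8 and chr2:74549736-74549985 (plus strand) for Hoxd3.
Hoxa7: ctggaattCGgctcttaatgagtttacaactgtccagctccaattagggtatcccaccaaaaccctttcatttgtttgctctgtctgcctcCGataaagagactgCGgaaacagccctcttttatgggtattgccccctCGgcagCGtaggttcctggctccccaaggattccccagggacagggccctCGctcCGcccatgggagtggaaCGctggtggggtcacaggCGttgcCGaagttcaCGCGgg
Hoxd9: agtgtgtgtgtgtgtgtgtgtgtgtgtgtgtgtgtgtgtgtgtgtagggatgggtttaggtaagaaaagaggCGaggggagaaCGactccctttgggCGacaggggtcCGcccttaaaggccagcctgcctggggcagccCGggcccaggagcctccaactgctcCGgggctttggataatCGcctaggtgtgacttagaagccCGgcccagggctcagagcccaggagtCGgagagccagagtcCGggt
Hoxd8: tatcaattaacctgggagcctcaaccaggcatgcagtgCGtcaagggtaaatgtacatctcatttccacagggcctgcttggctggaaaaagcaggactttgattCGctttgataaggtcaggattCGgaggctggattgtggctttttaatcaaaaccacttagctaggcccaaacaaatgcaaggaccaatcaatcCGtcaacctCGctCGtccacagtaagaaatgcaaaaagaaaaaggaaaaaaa
Hoxd3: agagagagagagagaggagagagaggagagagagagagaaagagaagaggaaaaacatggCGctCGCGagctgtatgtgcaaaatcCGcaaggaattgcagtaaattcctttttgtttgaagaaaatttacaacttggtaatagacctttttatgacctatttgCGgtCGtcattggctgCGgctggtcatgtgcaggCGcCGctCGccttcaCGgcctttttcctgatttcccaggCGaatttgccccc

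The stretches before Hoxa7, Hoxd9, Hoxd8 and Hoxd3 were whole inside an EZHIP peak and outside every Control and K27M peak. The fifth gene, Hoxc8, showed the opposite pattern, with its start inside a Control and a K27M peak and outside every EZHIP peak. The 4 sequences did not share one CpG density. Hoxa7 and Hoxd3 had 12 CpG dinucleotides each in 250 bases, Hoxd9 had 10 and Hoxd8 had 6. For Hoxa7 the RefSeq start lies 3281 bp from the start used here, and it too was inside an EZHIP peak only.

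The start of a member was inside a CBX2 peak for 17 of 38 genes in Control (44.7%), 20 with EZHIP (52.6%) and 17 with K27M (44.7%). Over all protein-coding genes the share was 0.903% in Control, 0.894% with EZHIP and 1.19% with K27M. Neighbouring members share a peak, and the count therefore rests on 5 peaks per list. 16 starts were inside a peak in all 3 lists and 17 in none. Control and K27M held the same 17 starts. For Hoxa9 this rested on a start 87 bp inside the K27M edge. Its RefSeq start, 3719 bp away, was inside a Control and an EZHIP peak and outside every K27M peak.

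The members sorted by paralogue number. All 12 genes of groups 10 to 13, which act in posterior parts of the body and in the limbs, had their start inside a peak in all 3 lists. Of the 17 genes of groups 1 to 6, which include the hindbrain and neck genes, none did in Control or K27M, and 1 did in EZHIP. The boundary lay in groups 7 to 9, where 5 of 9 starts were inside a peak in Control, 7 with EZHIP and 5 with K27M. In group 9, the starts of Hoxa9, Hoxb9 and Hoxc9 were inside a peak in every list and that of Hoxd9 only in EZHIP. In group 8, the start of Hoxb8 was inside in every list, Hoxc8 in Control and K27M, and Hoxd8 in EZHIP. In group 7, Hoxa7 was inside in EZHIP and Hoxb7 in no list.

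**Figure D1:**
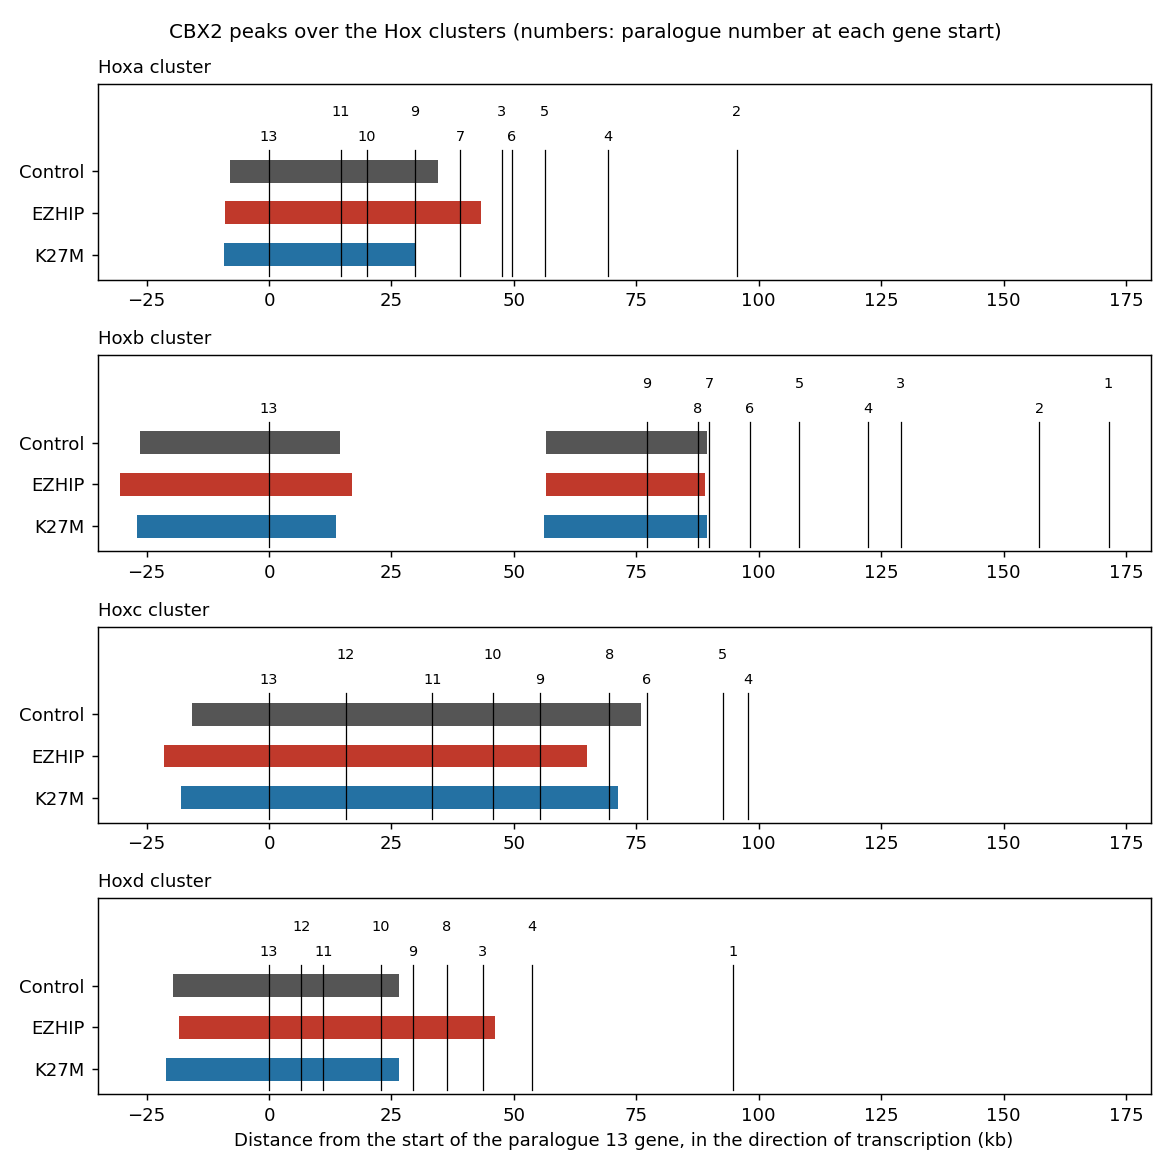
Bars are CBX2 peaks of the Control, EZHIP and K27M libraries over the 4 Hox clusters, and vertical lines are gene starts with their paralogue number. The x axis is the distance in kb from the start of the paralogue 13 gene in the direction of transcription; every bar ends before the starts of groups 1 to 6, except the EZHIP bar over Hoxd, which passes the Hoxd3 start.

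Of the starts inside an EZHIP peak, 4 of 20 (20%) were outside every Control peak, against 20% of such starts over all protein-coding genes. The share of starts present in EZHIP and absent from Control was thus that of the list as a whole. In the other direction, 1 of 17 Control starts (5.88%) was outside every EZHIP peak, against 20.8% over all genes. Between Control and K27M, 0 of 17 starts were lost, against 12.9% over all genes, and 0 of 17 were gained, against 34.1% over all genes. With 5 peaks behind the 17 starts, these shares describe few independent stretches. The 0 lost in K27M depends on the Hoxa9 start, 87 bp inside the K27M edge.

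Gene bodies gave a finer picture than starts. A body, from the first to the last annotated base, was covered over at least 50% of its length for 17 members in Control, 18 with EZHIP and 15 with K27M. Over all protein-coding genes such cover was found for 0.764% in Control, 0.693% with EZHIP and 0.858% with K27M. The whole body was covered for 14, 17 and 13 members, and no base was covered for 21, 18 and 21. Only genes at an edge had partial cover, which holds by construction where a peak is 1 joined stretch. Parts without a call inside a peak count as covered, so whole cover does not show binding along a whole body.

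Partial cover separated genes that the start alone put together. Hoxa9, a gene of the limb and of blood stem cells, had 58.7% of its body covered in Control, 100% with EZHIP and 1.1% with K27M, although its start was called inside a peak in all 3 lists. In K27M that start lay 87 bp inside the edge. Hoxc8, a gene of the thoracic region, had 100% of its body covered in Control, 0% with EZHIP and 47.9% with K27M. K27M thus lay between Control and EZHIP at this gene and not at Hoxa9.

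Hoxa7, another thoracic gene, had 57.8% of its body covered in EZHIP and 0% in the other lists. Hoxd9 and Hoxd8 had 100% covered in EZHIP and 0% in the others. Hoxd3, which acts in the neck vertebrae, had only 7.19% of its long body covered in EZHIP, and its start codon was outside every peak. It was called through its outermost start alone. Hoxb8 had 52.1% covered in Control and K27M and 40.4% in EZHIP, and Hoxd10 had 95.9% in Control and K27M and 100% in EZHIP.

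**Figure D2:**
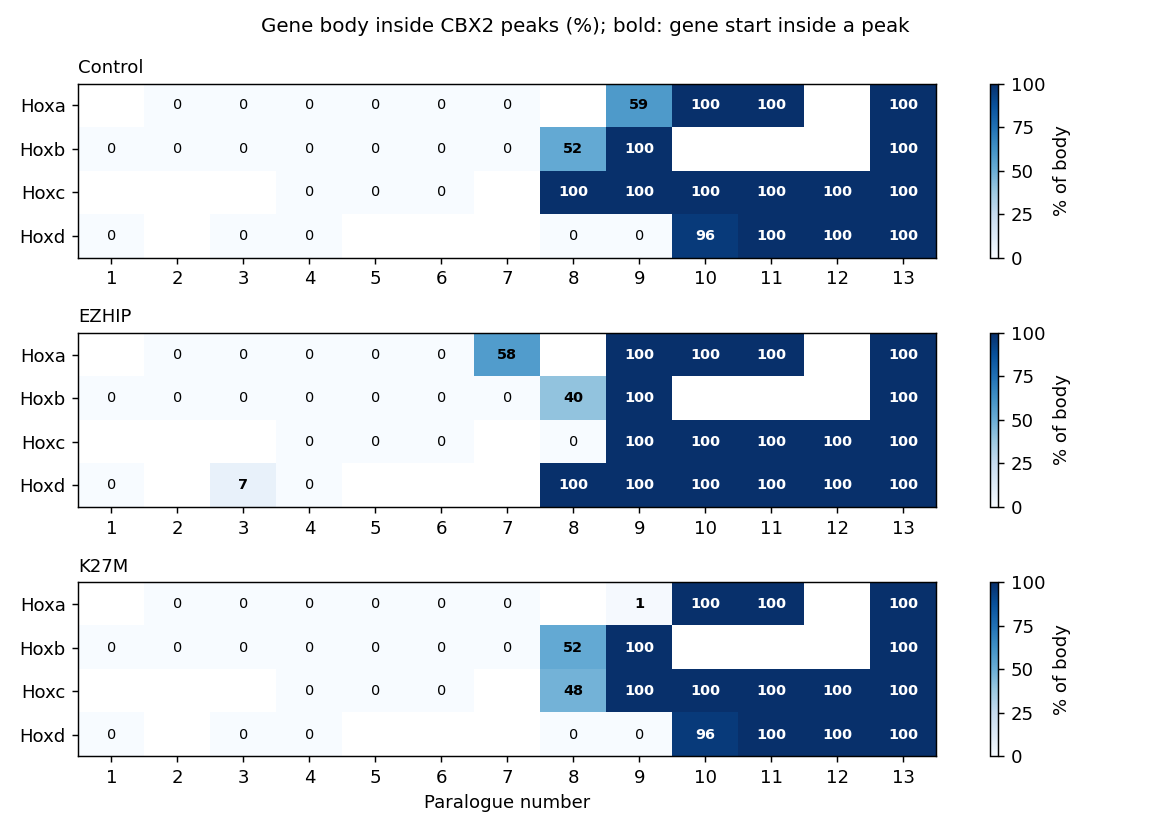
Each cell is the percent of a gene body inside CBX2 peaks, with clusters as rows and paralogue numbers 1 to 13 as columns, and bold type where the gene start was inside a peak. Cells without a number hold no listed gene; cover is 100% or near it on the right and 0% on the left in every list, and Hoxa7, Hoxa9, Hoxb8, Hoxc8, Hoxd3, Hoxd8, Hoxd9 and Hoxd10 differ between panels.

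In the Hoxa cluster, on chromosome 6, 1 peak covered the posterior genes in each list. It ran over chr6:52176401-52218800 in Control (42.4 kb), chr6:52167601-52219800 with EZHIP (52.2 kb) and chr6:52181001-52220000 with K27M (39 kb). Its posterior edge lay between Hoxa13 and Evx1, a neighbouring homeobox gene, in all 3 lists. Its anterior edge, on the side of the low paralogue numbers, fell in an exon of Hoxa9 in Control, in an intron of Hoxa9 in K27M and in an intron of Hoxa7 in EZHIP. Compared with Control, that edge was 8.8 kb further out in EZHIP and 4.6 kb further inwards in K27M.

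The next member start outside the edge was that of Hoxa7, 4.55 kb away in Control and 9.15 kb away in K27M. In EZHIP the Hoxa7 start was 4.25 kb inside, and the next start outside was that of Hoxa3, 4.26 kb away. Hoxa3 has 2 records in the annotation, the longer of which spans Hoxa4 to Hoxa6, so that its outermost start lies near Hoxa7. The peak covered 35% of the Hoxa cluster in Control, 43.9% with EZHIP and 30.3% with K27M.

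The Hoxb cluster, on chromosome 11, held 2 peaks in each list and no change of status. The first surrounded Hoxb13, which lies apart from the other genes, and was 41 kb wide in Control, 47.4 kb with EZHIP and 40.8 kb with K27M. The second held the starts of Hoxb9 and Hoxb8 and was 32.8, 32.4 and 33.2 kb wide. Between them lay a gap of 42 kb in Control, 39.6 kb with EZHIP and 42.4 kb with K27M.

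The anterior edge of the second Hoxb peak, at chr11:96145000 in Control and K27M, was at the same 200 bp bin in both and 0.4 kb further inwards in EZHIP. It fell inside Hoxb8, in an intron in Control and K27M and in an exon in EZHIP. The start of Hoxb7 lay just beyond it, 0.571 kb outside in Control and K27M and 0.971 kb outside in EZHIP. Hoxb7 was the member nearest to an edge among those outside. Moving every edge outwards by 1000 bp brought it inside a peak in all 3 lists.

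The Hoxc cluster, on chromosome 15, had the longest cover. Its single peak ran over chr15:102735801-102827400 in Control (91.6 kb), chr15:102730001-102816400 with EZHIP (86.4 kb) and chr15:102733601-102822800 with K27M (89.2 kb). The anterior edge fell between Hoxc8 and Hoxc6 in Control, in an intron of Hoxc8 in K27M, and between Hoxc9 and Hoxc8 in EZHIP. It was 11 kb further inwards in EZHIP and 4.6 kb further inwards in K27M than in Control, so both fell on the same side.

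The nearest starts place these edges among the genes. Hoxc6 was 1.29 kb outside the Control edge, Hoxc8 was 1.75 kb inside the K27M edge, and Hoxc8 was 4.65 kb outside the EZHIP edge. On the posterior side, the EZHIP peak reached 5.8 kb further out than Control and the K27M peak 2.2 kb. The EZHIP peak was therefore displaced towards Hoxc13 as a whole and was shorter by less than its anterior edge moved. Cover of the cluster was 65.5% in Control, 56% with EZHIP and 61.6% with K27M.

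The Hoxd cluster, on chromosome 2, held the largest difference among the edges of the members. Its peak ran over chr2:74486801-74533000 in Control (46.2 kb), chr2:74488001-74552600 with EZHIP (64.6 kb) and chr2:74485401-74533000 with K27M (47.6 kb). The anterior edge fell in the same bin in an exon of Hoxd10 in Control and K27M. In EZHIP it lay 19.6 kb further out, in an intron of Hoxd3, past Hoxd9 and Hoxd8. The Hoxd3 record spans Hoxd4, and its outermost start lies between Hoxd8 and Hoxd4. The EZHIP edge therefore did not reach Hoxd4. Hoxd9, Hoxd8 and Hoxd3 account for 3 of the 4 starts found in EZHIP and not in Control.

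In Control and K27M the start of Hoxd9 lay 2.74 kb outside the edge. In EZHIP the outermost start inside was that of Hoxd3, 2.61 kb from the edge, and the next start outside was that of Hoxd4, 7.43 kb away. The far end of the cluster, with Hoxd1, was 48.4 kb from the EZHIP edge. Cover of the cluster was 27.5% in Control and in K27M and 47.7% in EZHIP.

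Across the clusters the anterior edges of EZHIP did not move in one direction against Control. They lay further out in Hoxa and Hoxd, further inwards in Hoxc, and within 0.4 kb in Hoxb. K27M edges lay in the same bin in Hoxb and Hoxd and 4.6 kb further inwards in both Hoxa and Hoxc. Measured from the start of the paralogue 13 gene, the edge lay 35% along Hoxa in Control, 51.4% along Hoxb, 65.5% along Hoxc and 27.5% along Hoxd. In EZHIP these shares were 43.9, 51.1, 56 and 47.7%, and in K27M 30.3, 51.4, 61.6 and 27.5%.

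For comparison, edges were measured at every peak that overlapped exactly 1 peak of the other list. Over 183 such pairs of Control and EZHIP the median distance between edges was 0.8 kb, and 90% of edges lay within 4.6 kb. Over 208 pairs of Control and K27M the median was 1.2 kb, and 90% lay within 5.1 kb. A shift of at least 8.8 kb was found at 2.46% of the EZHIP edges and one of at least 19.6 kb at 0.546%. A shift of at least 4.6 kb was found at 13.9% of the K27M edges. Wide peaks varied more in EZHIP: among the 16 pairs whose Control peak was at least 30000 bp, a width chosen after the values were seen, 21.9% of edges had moved by at least 8.8 kb and 90% lay within 13.5 kb. The Hox peaks are part of both sets. The anterior EZHIP edges of Hoxa, Hoxc and Hoxd are themselves among those counted at 8.8 kb or more. The EZHIP shares are therefore not an independent background for them.

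**Figure D3:**
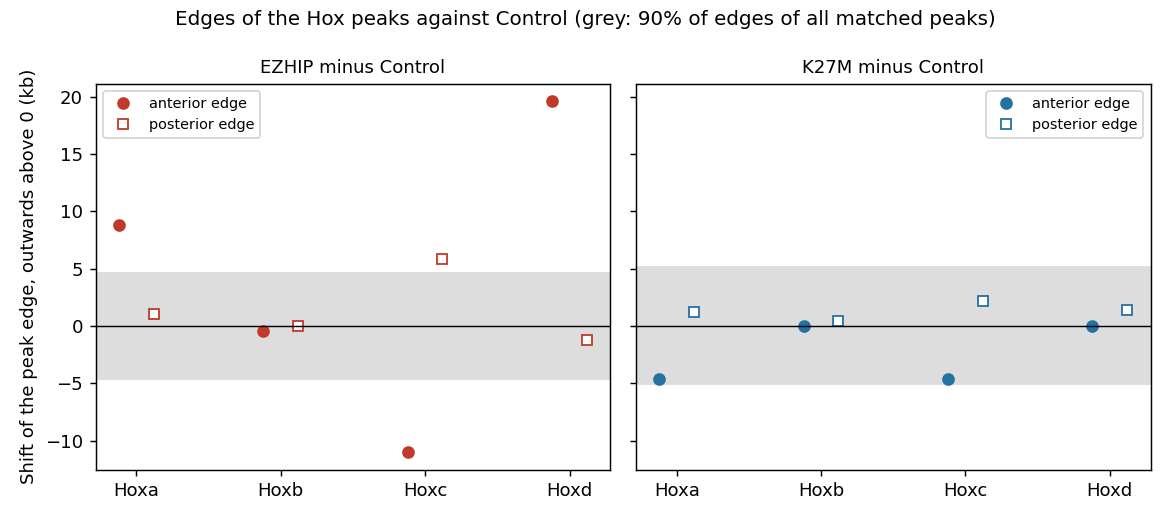
Points are the shifts in kb of the anterior (filled) and posterior (open) edge of the main Hox peak of each cluster, EZHIP or K27M minus Control, with outwards above 0. The grey band holds 90% of the edges of all matched peaks (4.6 kb for EZHIP, 5.1 kb for K27M); the anterior EZHIP edges of Hoxa (8.8 kb), Hoxc (-11 kb) and Hoxd (19.6 kb) and its posterior edge of Hoxc (5.8 kb) lie outside it, and every K27M edge lies inside.

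The length of the 4 clusters inside peaks was 184 kb of 485 kb in Control (38%), 204 kb with EZHIP (42%) and 175 kb with K27M (36%). The order ran opposite to the length of the whole lists, which was 3266 kb in Control, 2764 kb with EZHIP and 4467 kb with K27M. The 5 Hox peaks of a list made up 7.78% of the called length in Control, 10.2% with EZHIP and 5.59% with K27M. They were among the wider peaks, all within the 15 widest of Control, the 13 widest of EZHIP and the 26 widest of K27M. Over whole Hox peaks, the length shared by Control and K27M relative to the length in either (the Jaccard index) was 0.867 in Hoxa, 0.976 in Hoxb, 0.928 in Hoxc and 0.971 in Hoxd. Between Control and EZHIP it was 0.812, 0.915, 0.828 and 0.684, lower in each cluster, and both comparisons share the Control list.

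MicroRNAs in the clusters followed their place among the Hox genes. The miR-196 family, whose known targets include Hoxb8, lies next to group 9 genes, and the miR-10 family lies next to group 4 genes. Their mature 5p sequences from RefSeq (GRCm38.p6) are shown with the seed, bases 2 to 8, in capitals, because the 2 families lay on different sides of the peak edges in Control and EZHIP.
miR-196a-5p: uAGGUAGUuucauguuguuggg
miR-196b-5p: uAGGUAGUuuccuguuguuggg
miR-10a-5p: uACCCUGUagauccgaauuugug
miR-10b-5p: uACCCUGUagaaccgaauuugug

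The genes Mir196a-1 in Hoxb and Mir196a-2 in Hoxc, which give the same mature sequence, were inside a peak in all 3 lists. Mir196b in Hoxa was 3.76 kb inside the Control peak and 12.6 kb inside the EZHIP peak, and 0.837 kb outside the K27M peak, beside the K27M edge at the Hoxa9 start. Mir10a and Mir10b were outside every peak. The nearest edge to Mir10b, in Hoxd, was 31.1 kb away in Control and K27M and 11.5 kb away in EZHIP.

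Related genes outside the clusters were taken from a list. Evx1 and Evx2, homeobox genes at the posterior ends of Hoxa and Hoxd, were covered whole in all 3 lists, Evx1 by a peak of its own and Evx2 by the Hoxd peak. The 6 ParaHox genes are relatives of Hox genes that act in gut, pancreas and brain. Of their starts, 1 was inside a peak in Control, 1 with EZHIP and 4 with K27M. Over all protein-coding genes the share was 0.903% in Control, 0.894% with EZHIP and 1.19% with K27M. The start of Pdx1, a pancreas regulator, was inside in all 3 lists, while those of Cdx2, Gsx1 and Gsx2 were inside only in K27M. The Gsx2 start lay just outside an edge, by 1.11 kb in Control and 0.912 kb in EZHIP. Its body was covered over 54.2% and 62.5%. Cdx2 had 40.5% of its body covered in Control and 0% in EZHIP, and Gsx1 had 0% in both. The K27M list held 3 ParaHox starts that Control did not, and no such Hox start. Over all protein-coding genes, 34.1% of the K27M starts were outside every Control peak. Gsx1, Pdx1 and Cdx2 lie close together on chromosome 5, so these counts describe few independent places.

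Beyond the anterior ends, the nearest protein-coding genes outside the family were far from the peaks. The starts of Skap2 beside Hoxa, Skap1 beside Hoxb, Smug1 beside Hoxc and Mtx2 beside Hoxd lay at least 111 kb from a peak in every list. On the posterior side the Hoxc peak took in the neighbouring gene model Gm17649 whole in all 3 lists. The EZHIP peak at Hoxb13 reached into an intron of Ttll6 and covered 4.94% of its body, while the Control and K27M peaks covered 0%.

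CpG content, which the choice of members did not use, was read from the genome at each start. A CpG island window was a 500 bp window with at least 55% G+C and a CpG count of at least 0.65 times that expected from its bases, lying within 1000 bp of the start. It was present at 14 of the 16 starts inside a peak in all lists, at 5 of the 5 whose status differed, and at 7 of the 17 inside none. Over all protein-coding starts the share was 53.2%, and of these island starts only 1.4% were inside a Control peak, 1.39% inside an EZHIP peak and 1.85% inside a K27M peak. The observed over expected ratio in 1000 bp had a median of 0.663 over the 16 starts and 0.457 over the 17, with ranges of 0.451 to 0.948 and 0.257 to 0.995 that overlapped.

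This contrast depended on where the start was taken. At the outermost start codon, a place chosen after the values were seen, an island window was present for 15 of the 16 genes, 4 of the 5 and 13 of the 17. The median ratio there was 0.804 over the 16 and 0.658 over the 17. Starts outside all peaks could be as rich in CpG as those inside: Hoxa5 had a ratio of 0.995 and Hoxa4 of 0.918 at their outermost start. Hoxb13, inside a peak in every list, had 0.451.

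**Figure D4:**
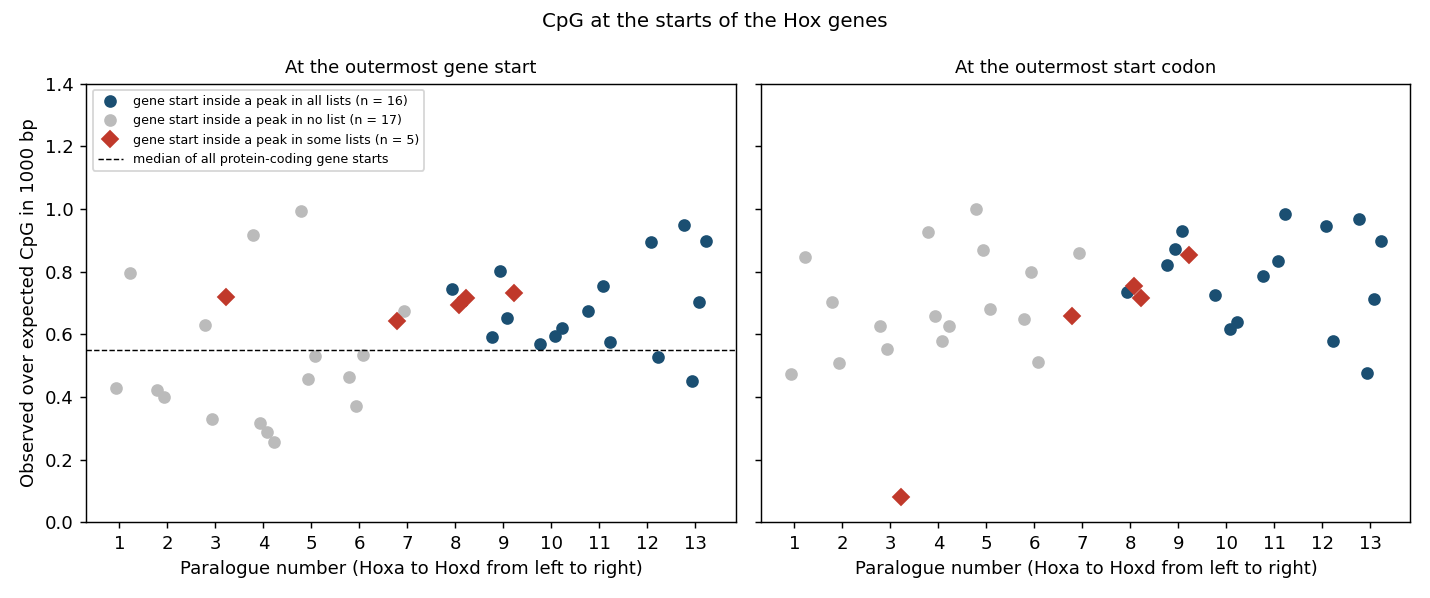
Points are the observed over expected CpG ratio in 1000 bp by paralogue number, at the outermost gene start (left) and at the start codon (right), coloured by whether the gene start was inside a peak in all, some or none of the lists. The dashed line is the median of all protein-coding gene starts (0.549); grey points of the low paralogue groups lie mostly under it on the left and mostly above that level on the right.

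Places of a short CTCF motif were compared with the edges, since the insulator protein CTCF is known to border domains in Hox clusters. The letters searched on both strands were CC, any 3 bases, AG, any 2 bases and GGC, a short string that matches at many places. The clusters held 19 matches in Hoxa, 37 in Hoxb, 16 in Hoxc and 21 in Hoxd. A match lay within 2000 bp of 13 of 27 distinct edges (48.1%), and 34.7% of all windows of 4000 bp on these chromosomes held one. The windows cover whole chromosomes, and the share inside the clusters was not computed. These shares therefore do not show whether matches are more frequent at edges than elsewhere in a cluster. Edges of the lists lie close together and are not separate observations. At the anterior edges the nearest match was 0.673, 1.5 and 0.196 kb away in Hoxa for Control, EZHIP and K27M. In the same order it was 2.51, 2.91 and 2.51 kb away at Hoxb8, 1.92, 4.65 and 1.68 kb away in Hoxc, and 0.542, 1.38 and 0.542 kb away in Hoxd. The edge of Hoxc in EZHIP, which had moved, was thus the farthest from a match among these.

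Sequences present in several copies took a small share of the peaks. Of 32-mers sampled every 100 bp, those found more than once in the genome made up 0.766 to 1.03% of the Hoxa peaks, 2.03 to 2.26% of the Hoxb peaks, 1.97 to 2.2% of the Hoxc peaks and 1.08 to 1.55% of the Hoxd peaks over the 3 lists. The whole Hoxb cluster had 5.98%, above its peaks.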

How the data were processed

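CBX2 ChIP-Seq was carried out by the authors on crosslinked, MNase-digested chromatin with antibody A302-524A. The authors aligned reads to mm9 with Bowtie 1.0.0 (submitters' processing notes, which also name deepTools). They called broad peaks in each library with MOSAiCS-HMM, with calls closer than a maximum gap of 10000 bp joined. Whether an input or the spike-in scaled the calls is not stated. The deposited files hold 3 columns, chromosome, start and end, per library, without counts or scores, so depth is unknown and no test was run.

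Starts were multiples of 200 bp and ends were read as included. Positions are 1-based on mm9, compared with NCBIM37 by chromosome length. Genes were from GENCODE vM1. Hoxa3 has 2 records, and its outermost bases were used. 1 gene of the family and 3 listed noncoding RNAs were not analysed here, and the upstream sequence of 1 member and the listed cofactors of Hox proteins are not reported here. The members and lists were chosen with earlier results of these data known. Named genes were those whose status differs, those nearest each edge inside and outside, and the nearest neighbours of each cluster. The genome has no soft mask, so copies of 32-mers stood in for repeats. RefSeq promoters (GRCm38.p6) were placed by exact match, for 22 of 38 members, and were absent for Hoxa4, Hoxb2, Hoxb3, Hoxb5, Hoxb6, Hoxb7, Hoxb9, Hoxb13, Hoxc5, Hoxc6, Hoxc8, Hoxc9, Hoxc10, Hoxc11, Hoxc12 and Hoxc13. Steps were run in Python 3.11.15. Those for starts, cover, edge distance and joining were tested on simulated peaks, and the sequence steps were not.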

Additional observations from a re-analysis of the deposited data

How the results depend on the processing

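10 other settings and 2 more chosen after seeing the data were applied one at a time, and 3 counts moved by more than 1.5 times while no value changed direction. Several settings could not move a value. The narrowest Hox peak is 32.4 kb wide and no other peak lies within 37 kb. A minimum of 5000 bp, joining below 10000 bp and taking the 255 widest peaks therefore leave the Hox peaks as they are. Moving all edges alike leaves the kb shifts of edges between lists unchanged, although it can change which starts are inside. Values that could not move are no sign of stability. With the outermost start codon as the start, the EZHIP count of groups 1 to 6 fell from 1 to 0, since the start codon of Hoxd3 is outside its peak. With every edge moved inwards by 1000 bp, 1 start was inside a Control and no K27M peak, where none had been, since Hoxa9 left the K27M peak. At the start codon, chosen after the data were seen, 13 and not 7 of the members outside all peaks had a CpG island window. Start codons gave 16 Control, 19 EZHIP and 16 K27M starts, with Hoxa9 leaving Control and K27M and Hoxd3 leaving EZHIP. Hoxa9 was then inside a peak in EZHIP alone. The count inside an EZHIP and no Control peak stayed at 4, with Hoxa9 in place of Hoxd3. With RefSeq starts, an added setting, Hoxa9 left the K27M peak alone. No paired analysis was possible because every condition had a single library, and for the same reason no library could be left out. Depth and the calling threshold could not be varied.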
